A study of Mus musculus with 17 samples.

Results

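The genes of the main plasma apolipoproteins, Apoa1, Apoa2, Apoa4, Apoa5, Apob, Apoc1, Apoc2, Apoc3, Apoc4 and Apoe, were followed in 2 RNA sequencing experiments on mice with lesions in the sphingomyelin synthase family. They were taken by symbol, 10 genes of the 49315 in the liver table and of the 15632 listed in at least 1 hepatocyte file, and all 10 were found in both and passed the filter on low counts in both. The liver experiment held 4 libraries labelled SMSrKO, a knockout of the sphingomyelin synthase related protein SMSr encoded by Samd8, and 4 labelled wild type (WT). All of these mice, WT included, had eaten a high-fat diet with fructose in the drinking water for 16 weeks. The second experiment held 3 libraries labelled tKO (Sms1/Sms2/Smsr-tKO), 3 labelled dKO (Sms1/Sms2-dKO) and 3 labelled WT, from hepatocytes freed with collagenase from mice 2 months old. Sms1 and Sms2 are encoded by Sgms1 and Sgms2. The labels name no Cre driver, promoter or deleted exon, and nothing in them ties each replicate to its own animal. The p-values below therefore rest on variation among the libraries at hand, part of which may be technical.

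Apolipoproteins coat the lipid particles that carry triglyceride and cholesterol in blood, and the liver makes most of them. ApoB is the structural backbone of very low density lipoprotein (VLDL), with a single copy on each particle, and ApoE is the ligand through which the liver takes remnants back up. ApoA-I and ApoA-II are the main proteins of high density lipoprotein (HDL). ApoC-II is the cofactor that lipoprotein lipase needs, ApoC-III and ApoC-I restrain lipolysis and remnant uptake, and ApoA-V favours lipolysis. ApoA-IV travels on triglyceride-rich particles and HDL, and in rodents it is made in liver as well as in intestine. Sphingomyelin, the product of SMS1 and SMS2, is one of the phospholipids of the particle surface.

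Liver libraries held 24391627 to 47351126 counts and hepatocyte libraries 9221487 to 9665314 expected counts, rounded to whole numbers. The biological coefficient of variation common to all genes was 20.3% in liver and 3.52% in hepatocytes. Replicates of every pair differed beyond sampling noise, but by unlike amounts. The chi-square per degree of freedom between 2 replicates, near 1 for sampling noise alone, was 21.5 to 165 in the deeper liver libraries. In hepatocytes it was 1.54 to 2.67. The targeted genes did not follow the labels in most cases. Samd8 averaged 54.2 ± 3.67 CPM (counts scaled to library size) in libraries labelled SMSrKO and 42.6 ± 6.38 CPM in WT liver. In hepatocytes it averaged 101 ± 2.94 CPM in libraries labelled tKO and 69.7 ± 3.57 CPM in WT. Sgms1 averaged 58.7 ± 3.31 CPM in tKO, 90.5 ± 5.55 CPM in dKO and 49.8 ± 3.34 CPM in WT hepatocytes. Sgms2 alone was called lower by edgeR (log2 fold change −0.29 in tKO and −0.29 in dKO against WT), with 149.6 ± 7.12 CPM in tKO, 150.0 ± 15.8 CPM in dKO and 183 ± 7.69 CPM in WT hepatocytes (SD, n = 4 each in liver and n = 3 each in hepatocytes). The groups SMSrKO, dKO and tKO are therefore groups of libraries labelled so, here and in every direction given below. Subcutaneous fat is the tissue named in the extraction notes of the SMSrKO experiment, whose other labels say liver. There 5 adipocyte markers together reached 0.318 to 1.89 CPM in SMSrKO and 0.317 to 2.55 CPM in WT libraries, with leptin at 0. In contrast, 7 hepatocyte markers together held 74673 to 84776 CPM in SMSrKO and 58955 to 69500.0 CPM in WT. WT 1 stood apart in liver. There 14 acute phase genes together held 44867 CPM, against 18830.0 to 21849 CPM in the SMSrKO libraries and 19062 to 24006 CPM in the other 3 WT libraries. Of the 10 apolipoprotein genes 7 had their lowest WT level in WT 1.

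Of the 10 genes, 8 lie in 2 clusters. On chromosome 9 of GRCm38, Apoa1 (46228580 to 46230466), Apoc3 (46232933 to 46235636, minus strand), Apoa4 (46240696 to 46243459) and Apoa5 (46268633 to 46271919) fill 43340 bases between Sik3 and Zpr1. On chromosome 7, Apoc2 (19671579 to 19677941), Apoc4 (19678083 to 19681479), Apoc1 (19689481 to 19692660) and Apoe (19696109 to 19699188), all on the minus strand, fill 27610 bases between Clptm1 and Tomm40. Apoa2 lies on chromosome 1 (171225054 to 171226379) and Apob on chromosome 12 (7977648 to 8016835), both on the plus strand. RefSeq promoters of GRCm38.p6, from 250 bases before to 50 after the start, were at hand for 8 of the 10. Those of the clusters are printed here because levels in tKO against dKO hepatocytes divided by cluster, as described further on, with capitals marking matches to the 3 motifs searched.
Apoa1 promoter, chr9:46228380-46228679, plus strand: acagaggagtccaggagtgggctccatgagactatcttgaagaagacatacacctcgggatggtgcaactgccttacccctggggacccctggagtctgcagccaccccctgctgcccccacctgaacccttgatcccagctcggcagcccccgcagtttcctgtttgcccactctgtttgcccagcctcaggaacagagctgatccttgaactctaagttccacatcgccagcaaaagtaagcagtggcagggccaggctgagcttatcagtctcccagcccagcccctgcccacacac
Apoa4 promoter, chr9:46240594-46240893, plus strand: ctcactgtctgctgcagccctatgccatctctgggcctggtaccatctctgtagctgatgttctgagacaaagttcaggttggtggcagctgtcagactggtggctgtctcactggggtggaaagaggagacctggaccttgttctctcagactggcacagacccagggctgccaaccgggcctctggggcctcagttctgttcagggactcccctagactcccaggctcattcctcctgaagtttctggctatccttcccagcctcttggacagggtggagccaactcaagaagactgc
Apoa5 promoter, chr9:46268383-46268682, plus strand: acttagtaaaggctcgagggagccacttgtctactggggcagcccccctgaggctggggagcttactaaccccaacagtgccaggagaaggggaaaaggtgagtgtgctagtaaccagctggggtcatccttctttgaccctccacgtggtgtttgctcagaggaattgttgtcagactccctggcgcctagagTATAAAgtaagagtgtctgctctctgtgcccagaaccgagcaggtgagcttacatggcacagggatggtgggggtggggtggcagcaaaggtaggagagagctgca
Apoe promoter, chr7:19699139-19699438, minus strand: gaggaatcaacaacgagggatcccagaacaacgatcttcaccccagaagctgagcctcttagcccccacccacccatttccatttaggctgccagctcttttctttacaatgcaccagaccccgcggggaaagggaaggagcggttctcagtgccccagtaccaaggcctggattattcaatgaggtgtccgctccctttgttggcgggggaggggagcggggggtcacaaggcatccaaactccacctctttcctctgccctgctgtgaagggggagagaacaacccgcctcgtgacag
Apoc4 promoter, chr7:19681411-19681710, minus strand: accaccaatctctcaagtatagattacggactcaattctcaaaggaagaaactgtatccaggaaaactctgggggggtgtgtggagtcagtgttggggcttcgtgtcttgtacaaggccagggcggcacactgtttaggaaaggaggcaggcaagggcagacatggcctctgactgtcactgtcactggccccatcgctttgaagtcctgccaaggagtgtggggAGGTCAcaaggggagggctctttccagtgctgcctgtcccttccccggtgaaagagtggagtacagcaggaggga
Apoc2 promoter, chr7:19677892-19678191, minus strand: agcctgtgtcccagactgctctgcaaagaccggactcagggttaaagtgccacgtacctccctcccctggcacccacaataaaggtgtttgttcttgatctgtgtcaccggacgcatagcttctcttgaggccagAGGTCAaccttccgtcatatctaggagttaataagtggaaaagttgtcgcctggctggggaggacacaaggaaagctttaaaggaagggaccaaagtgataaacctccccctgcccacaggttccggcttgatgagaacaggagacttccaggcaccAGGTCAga
The motifs, read on both strands, were AGGTCA, a single unit of the repeats that nuclear receptors bind, the letters TATAAA of the TATA box and CAAAGTCCA, an element bound by HNF4. No match overlapped another. Matches are of letters alone at any place in the window, and whether any acts in its promoter was not tested. AGGTCA stood once in the Apoc4 promoter, 25 bases before the start, and 2 times in that of Apoc2, 115 bases before and 42 bases after it, and 16.3% of all 32851 RefSeq promoters of that length hold it. TATAAA stood 56 bases before the start in Apoa5, and also in Apoa2 (212 bases before) and Apob (60 bases before), and 13.6% of all promoters hold it. CAAAGTCCA was in none of the 8 windows and in 0.475% of all promoters. The Apoa4 start of RefSeq lies 148 bases from the gene start in the liver table, and that of Apoa1 50 bases from it. Promoters of Apoc1 and Apoc3 are not shown.

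In liver the 10 transcripts spanned more than 3 orders of magnitude in TPM (transcripts scaled to length and library depth). Apoe was the third most abundant of all genes in both groups, at 30719 ± 983 TPM (SD, n = 4) in SMSrKO and 27617 ± 5729.5 TPM (SD, n = 4) in WT livers. Apoa2 followed at rank 5 in SMSrKO and rank 6 in WT, with 19237 ± 1186 TPM in SMSrKO and 16643 ± 3375 TPM in WT livers. Apoa1, the backbone protein of HDL, came next with 9062 ± 1270.4 TPM in SMSrKO and 7843 ± 1069 TPM in WT livers, and Apoc1 after it with 6252 ± 497 TPM in SMSrKO and 5419.8 ± 833 TPM in WT. The ranges of neighbours among these 4 over libraries did not overlap within either group. Below them Apoc3, Apoa5, Apoa4, Apob and Apoc4 averaged between 403 and 1932 TPM in SMSrKO livers and between 339 and 1572 TPM in WT livers. In this middle band Apoc3 and Apoa5 overlapped in SMSrKO, Apob and Apoa4 overlapped in both groups, and Apoa5 and Apoa4 overlapped in WT, so their order is not set beyond the spread. Apoc2 was far lower, with 16.6, 14.6, 21.3 and 15.3 TPM in SMSrKO and 7.71, 12, 16.3 and 9.58 TPM in WT livers. Its liver level is uncertain, because 79.5% of its exon bases are also exon of the readthrough gene Gm44805 on the same strand, itself at 4.47 to 7.19 TPM in SMSrKO and 7.10 to 7.66 TPM in WT. The counting rule for shared bases is not given in the sources used here.

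In hepatocytes, where the deposited unit is FPKM (fragments scaled to transcript length and library size), Apoe again led, with 6002 ± 211 FPKM in tKO, 5023 ± 36.0 FPKM in dKO and 5472 ± 82.0 FPKM in WT (SD, n = 3 each). Apoa2 took place 2 in all 3 groups. Apoc1 and Apoa1 took places 3 and 4, Apoc1 ahead in tKO and WT, while in dKO their ranges overlapped (means of 2396 FPKM for Apoc1 and 2421 FPKM for Apoa1). Apoc3 took place 5 throughout, and Apoc4, Apoa4 and Apob followed in that order in tKO and WT, while Apoa4 stood ahead of Apoc4 in dKO. At the foot the order turned by group. Apoa5 was the lowest in tKO, at 61.2 ± 5.36 FPKM below 98.0 ± 3.13 FPKM for Apoc2. Apoc2 was the lowest in dKO, at 59.6 ± 2.84 FPKM below 83.1 ± 3.28 FPKM for Apoa5, and in WT, at 48.0 ± 3.55 FPKM below 72.2 ± 0.375 FPKM. Gm44805 was listed in the dKO 4 file alone, at 1.75 FPKM. The gene lengths behind the units differ between the experiments, for Apoc4 2537 bases in the liver table and 518 bases in the hepatocyte files, so levels are not compared between liver and hepatocytes.

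**Figure D1:**
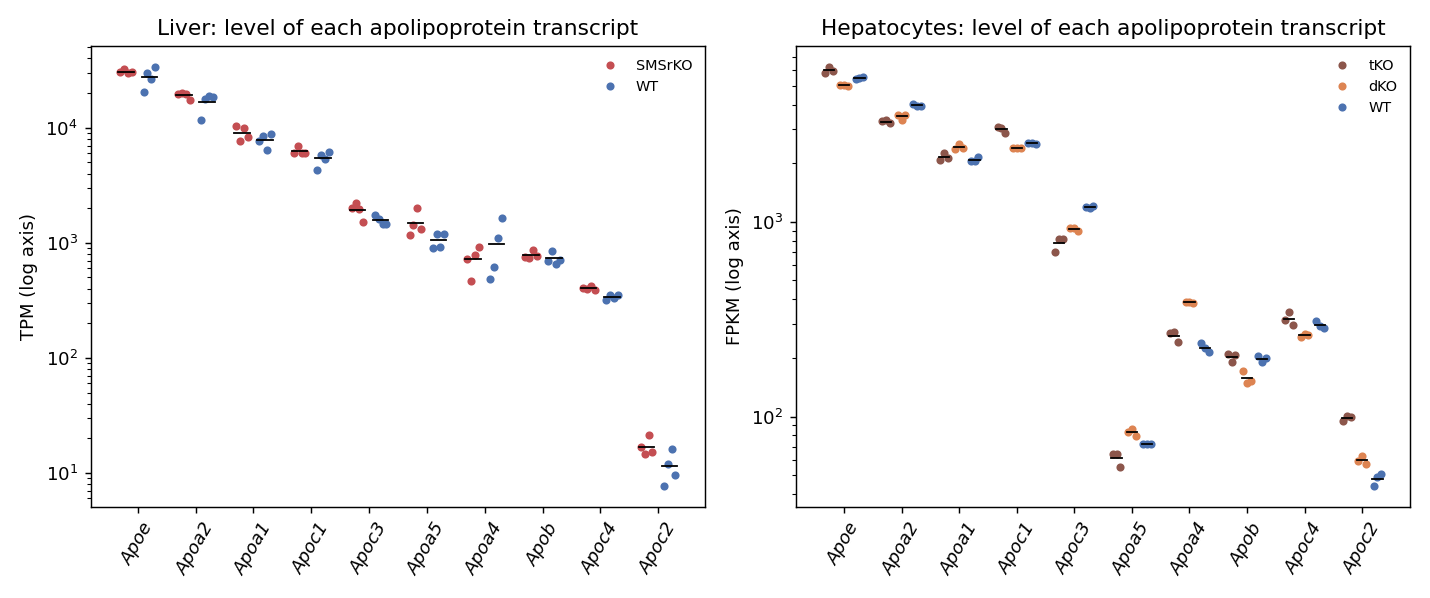
Level of each apolipoprotein transcript in every library, in TPM for liver (left panel, SMSrKO then WT) and FPKM for hepatocytes (right panel, tKO, dKO then WT), on log axes, where points are libraries and black lines group means. Apoe is highest in every group, Apoc2 lies between 7.71 and 21.3 TPM in liver, and Apoa5 and Apoc2 change places between tKO and the other hepatocyte groups.

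The liver comparison sets the libraries labelled SMSrKO against WT under the diet. No apolipoprotein gene passed the test. Of the 10, 0 were called by the edgeR quasi-likelihood test at an adjusted p of 0.05 over 15820 genes, where 0.234% of all genes were called. At an unadjusted p under 0.05 they numbered 3 (Apoc4, Apoa5 and Apoc2), where 13.1% of all genes did. The log2 fold changes ran from −0.37 to 0.63 with a median of 0.27, against −0.012 over all genes. 9 of the 10 were above 0, against 47.8% of all genes. The DESeq2 test called 2, Apoc4 and Apoa5, both higher in SMSrKO (adjusted p = 0.00127 for Apoc4 and 0.0382 for Apoa5), where it called 3.02% of all genes. The limma fits on log2 TPM called 0. Without WT 1 the count by edgeR was 0, where 0.682% of all genes were called, and the median was 0.24.

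Apoc4, a small exchangeable apolipoprotein expressed mainly in liver, had the smallest p, with 401, 399.5, 424 and 386 TPM in SMSrKO and 321, 351, 335 and 351 TPM in WT livers. The 2 groups did not overlap, and the log2 fold change was 0.30 ± 0.093, adjusted p = 0.215 (edgeR). Apoa5, which favours lipolysis, had 1169.8, 1422, 1989.8 and 1326 TPM in SMSrKO and 896, 1204, 925 and 1197 TPM in WT livers. SMSrKO 7 was the highest, and the ranges met in TPM but not in scaled CPM, at 1430.0 to 2301 CPM in SMSrKO and 1072 to 1298 CPM in WT (log2 fold change 0.54 ± 0.17, adjusted p = 0.222 in edgeR). Groups that did not overlap in CPM with SMSrKO higher, as for these 2 genes, were found in 3.79% of all genes. Apoc2, the lipase cofactor, gave the largest fold change of the 10, 0.63 ± 0.23, adjusted p = 0.294 (edgeR), on the few counts described above, and SMSrKO 6 and SMSrKO 8 lay below WT 3.

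Among the HDL proteins, Apoa1 had 10329.9, 7700.1, 9939 and 8280.5 TPM in SMSrKO and 7732, 8453, 6385 and 8802 TPM in WT livers. Apoa2 had 19455, 20185, 19792 and 17516 TPM in SMSrKO and 11645, 17599, 18902 and 18426 TPM in WT livers, WT 1 being far below the other WT libraries. Both groups overlapped for each, and the log2 fold changes were 0.27 ± 0.16, adjusted p = 0.495 for Apoa1 and 0.27 ± 0.16, adjusted p = 0.513 for Apoa2 (edgeR). Apoc3, the inhibitor of lipolysis, had 2022, 2220.4, 1983 and 1504 TPM in SMSrKO and 1758, 1609, 1465 and 1455 TPM in WT livers, with SMSrKO 8 within the WT range (log2 fold change 0.35 ± 0.16, adjusted p = 0.384 in edgeR). Apob, the VLDL backbone, had 752, 745, 864 and 760.3 TPM in SMSrKO and 698, 857, 660.3 and 708 TPM in WT livers (0.15 ± 0.13, adjusted p = 0.645). Apoe had 30288, 32107, 29833 and 30648 TPM in SMSrKO and 20311, 29987, 26392 and 33779.9 TPM in WT livers, the 4 SMSrKO values lying inside the WT range (0.22 ± 0.16, adjusted p = 0.605). Apoc1, its neighbour, had 5996, 6997, 6026 and 5990.4 TPM in SMSrKO and 4283, 5832, 5359 and 6204 TPM in WT livers, and the groups overlapped (0.27 ± 0.13, adjusted p = 0.42).

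Apoa4 was the one gene with a negative fold change and the widest spread. It had 720.3, 461, 788 and 921 TPM in SMSrKO and 483, 622, 1107 and 1658 TPM in WT livers. The groups overlapped over most of their range, and the log2 fold change was −0.37 ± 0.37, adjusted p = 0.706 (edgeR), −0.0049 without WT 4 and −0.57 without WT 1. Of its exon bases 34.9% also lie in the antisense gene Gm47528, at 3.71 to 9.46 TPM in SMSrKO and 5.74 to 14.8 TPM in WT, and without a known strand setting their reads cannot be told apart.

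**Figure D2:**
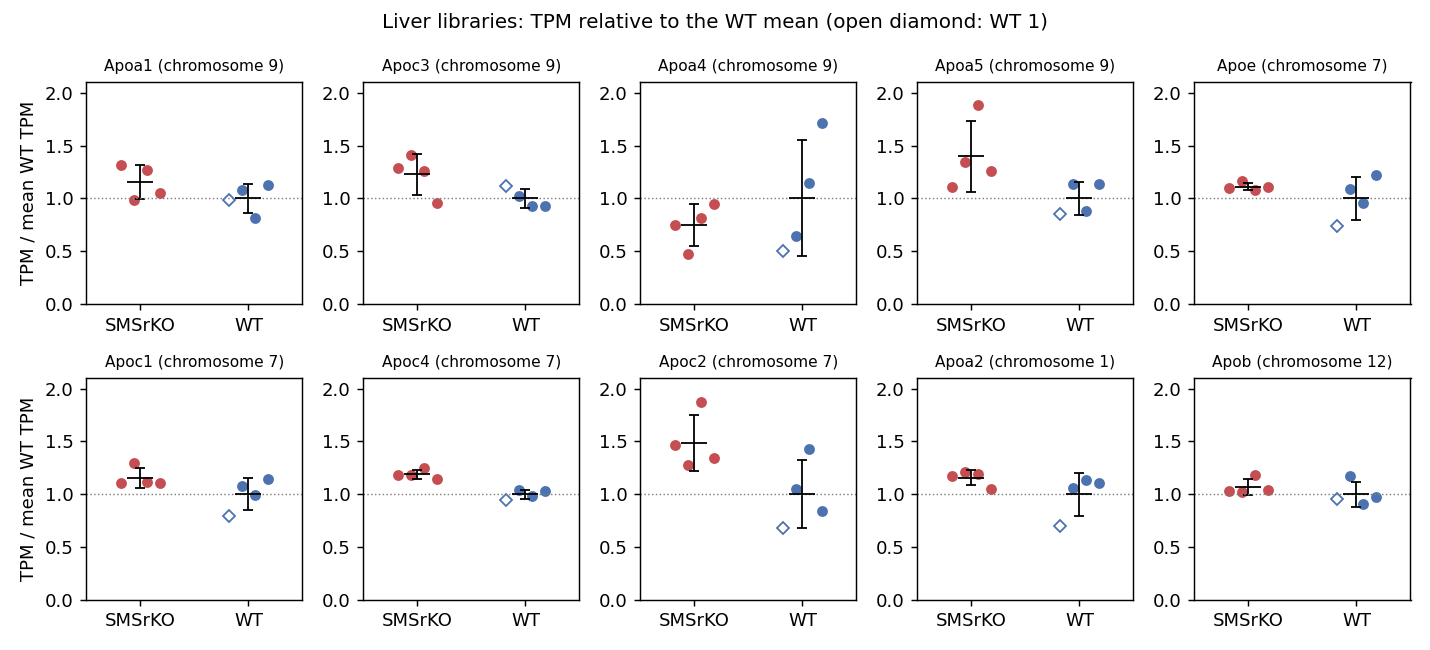
TPM of each apolipoprotein gene in the liver libraries divided by the mean of the 4 WT libraries (vertical axis), SMSrKO left and WT right in each panel, with points for libraries, an open diamond for WT 1, and bars for mean ± SD. Apoc4 separates the groups, Apoa4 spreads widest in WT (483 to 1658 TPM), and WT 1 is the lowest WT library for 7 of the 10 genes.

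The sum of 7 hepatocyte markers was higher in SMSrKO livers, with 74673 to 84776 CPM in SMSrKO and 58955 to 69500.0 CPM in WT. Alb carried that difference, with 53227 to 60867 CPM in SMSrKO and 38264 to 49374 CPM in WT, while the other 6 together held 20312 to 23950.5 CPM in SMSrKO and 18335 to 26509.8 CPM in WT and overlapped. On the log2 scale Alb had 0.45 ± 0.16, Cps1 0.32 ± 0.34, Ttr 0.29 ± 0.15, Ahsg 0.27 ± 0.185 and Hnf4a 0.089 ± 0.105. Below 0 were Trf, at −0.085 ± 0.14, and Fgb, at −0.14 ± 0.26. The counts of the 10 apolipoproteins together overlapped as well, at 4.90% to 5.04% of each library in SMSrKO and 3.62% to 5.25% in WT. The median log2 fold change of the 7 markers was 0.27, with 0 of 7 called by edgeR (1 at an unadjusted p under 0.05, Alb by DESeq2), as against 0.27 for the apolipoproteins. Fewer cells of a type and less RNA per cell cannot be told apart in these bulk libraries. Macrophage markers, of interest because macrophages also make ApoE, together held 508 to 1376 CPM in SMSrKO and 849.5 to 1112 CPM in WT (8 genes). Endothelial markers held 323 to 447 CPM in SMSrKO and 383 to 479.5 CPM in WT (7 genes), and stellate cell markers held 404 to 475 CPM in SMSrKO and 303 to 629.7 CPM in WT (8 genes). Of these 3 lists edgeR and DESeq2 called 0, and at an unadjusted p under 0.05 there was 1 gene, of the stellate list. Bile duct markers held 48.8 to 72.4 CPM in SMSrKO and 32.5 to 114 CPM in WT. Erythroid markers held 37.4 to 44.3 CPM in SMSrKO and 41.1 to 149 CPM in WT. edgeR called 0 of 5 bile duct genes (0 at an unadjusted p under 0.05 and by DESeq2) and 0 of 4 erythroid genes (3 at an unadjusted p under 0.05, and the same number by DESeq2, all lower in SMSrKO). Intestinal markers held 85.7 to 111 CPM in SMSrKO and 43.1 to 151 CPM in WT, with the defining factors Cdx1 and Cdx2 at 0 in both groups. Fabp2 made up nearly all of these sums, and the other 6 genes held 0.254 to 0.575 CPM in SMSrKO and 0.253 to 0.572 CPM in WT. The part of cell makeup in the apolipoprotein values was not tested.

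The partners of the apolipoproteins in liver gave no call by edgeR either: 0 of 12 VLDL assembly genes, 0 of 3 genes of Apob RNA editing, 0 of 10 tested receptors and clearance genes, and 0 of 8 lipases and lipase regulators. Likewise it called 0 of 9 HDL genes, 0 of 8 other apolipoproteins, 0 of 14 acute phase genes and 0 of 24 transcription factors known to act on apolipoprotein genes. At an unadjusted p under 0.05 there were 2 VLDL assembly genes, 0 editing genes, 2 receptors and clearance genes, 1 lipase or regulator gene, 1 HDL gene, 4 other apolipoproteins, 4 acute phase genes and 8 transcription factors. The DESeq2 test called 7 genes of these lists, with Lcat, Apoh, Vldlr, Nr1d1, Cebpa and Hamp higher and Steap4 lower in SMSrKO. Lcat, which esterifies cholesterol on HDL with ApoA-I as activator, averaged 577 ± 28.7 CPM in SMSrKO and 440.3 ± 29.5 CPM in WT (SD, n = 4 each), a log2 fold change of 0.39 ± 0.10, adjusted p = 0.15 (edgeR). Apoh had 0.38 ± 0.12, adjusted p = 0.216, the VLDL receptor Vldlr 0.93 ± 0.27, adjusted p = 0.21, and the clock repressor Nr1d1, a known repressor of Apoc3, 0.88 ± 0.23, adjusted p = 0.166 (edgeR). Saa1 and Saa2, the acute phase apolipoproteins, had −3.68 ± 1.26, adjusted p = 0.281 for Saa1 and −4.26 ± 1.47, adjusted p = 0.286 for Saa2 (edgeR). Their WT level was spread wide, at 56.1 ± 20.0 CPM in SMSrKO and 719.9 ± 1236 CPM in WT for Saa1 (SD, n = 4 each).

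In hepatocytes nearly all of the apolipoprotein genes passed the test, but by small steps. Against WT, dKO libraries had 10 of 10 called by edgeR, 4 higher (Apoa4, Apoc2, Apoa1 and Apoa5) and 6 lower (Apoc3, Apob, Apoa2, Apoc4, Apoe and Apoc1), where 44.0% of 11471 genes were called, 24.0% higher and 20.0% lower. Against WT, tKO libraries had 7 of 10 called, 4 higher (Apoc2, Apoc1, Apoa4 and Apoe) and 3 lower (Apoc3, Apoa2 and Apoa5), where 47.4% of genes were called, 25.6% higher and 21.8% lower. In tKO against dKO, 10 of 10 were called, 5 higher (Apoc2, Apob, Apoc1, Apoc4 and Apoe) and 5 lower (Apoa4, Apoa5, Apoc3, Apoa1 and Apoa2), where 29.5% of genes were called, 14.3% higher and 15.2% lower. The 3 comparisons share libraries, so they are not independent of each other.

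The median standard error of a log2 fold change was 0.040 for the 10 genes and 0.0858 to 0.0866 for all genes. In scaled CPM the groups overlapped for 4 of the 10 genes in tKO against WT. They did for 0 in dKO against WT and 0 in tKO against dKO. The share of all genes without overlap was not counted in hepatocytes, so groups that do not overlap below have no background beside them. With a fold of at least 1.5 as well, 1 of 10 was called in dKO against WT (Apoa4), against 13.6% of all genes. In tKO against WT 2 of 10 were (Apoc2 and Apoc3), against 15.2% of all genes, so that both shares lay close to the background. In tKO against dKO 2 of 10 were (Apoc2 and Apoa4), against 7.26% of all genes. The dispersion of the liver libraries was also used in place of the much smaller one of the hepatocyte libraries. It was 1 value common to all genes, from a fit that included WT 1 of the liver. With it the edgeR likelihood ratio test left 1 call in dKO against WT (Apoa4, adjusted p = 0.0167) and 1 in tKO against WT (Apoc2, adjusted p = 0.0016). That test left 0 in tKO against dKO, where 2 had an unadjusted p under 0.05 and 9.19% of all genes did. All genes called under that dispersion were 9.2% in dKO against WT, 10.6% in tKO against WT and 2.84% in tKO against dKO.

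Among the regulators of lipolysis, Apoc2, whose product switches on lipoprotein lipase, gave the largest fold change of the 10 in tKO against WT. It had 94.4, 100.1 and 99.5 FPKM in tKO, 59.2, 62.6 and 57.0 FPKM in dKO and 44.0, 49.0 and 50.9 FPKM in WT, so that tKO lay above dKO and dKO above WT with no overlap. The log2 fold change was 0.97 ± 0.073, adjusted p = 3.69e-20 in tKO against WT, 0.35 ± 0.079, adjusted p = 0.000112 in dKO against WT and 0.61 ± 0.07, adjusted p = 1.03e-11 in tKO against dKO (edgeR). The overlap of Apoc2 with Gm44805 was computed on the gene coordinates of the liver experiment alone. In the hepatocyte files Gm44805 was listed in dKO 4 alone, with 9 counts, and whether it touches Apoc2 there was not tested. Apoc3, the opposing inhibitor, went the other way, with 697, 814 and 813 FPKM in tKO, 932, 934 and 902 FPKM in dKO and 1188, 1170.2 and 1206 FPKM in WT. Here too the 3 groups did not overlap, and the log2 fold change was −0.65 ± 0.041, adjusted p = 9.8e-23 in tKO against WT, −0.37 ± 0.041, adjusted p = 4.46e-12 in dKO against WT and −0.28 ± 0.042, adjusted p = 1.18e-07 in tKO against dKO. Apoc1, an inhibitor of lipolysis and of receptor uptake, had 3060.2, 3043 and 2863 FPKM in tKO, 2403, 2397 and 2387 FPKM in dKO and 2538, 2537 and 2520.3 FPKM in WT. It was higher in tKO (0.21 ± 0.036, adjusted p = 6.5e-07 against WT, 0.30 ± 0.036, adjusted p = 9.43e-11 against dKO). In dKO it was slightly lower than in WT (−0.085 ± 0.036, adjusted p = 0.0472). That call was lost without any single one of the 6 dKO and WT libraries (adjusted p of 0.0663 to 0.126), and by DESeq2 (adjusted p = 0.0535) and by limma on log2(FPKM + 1) (adjusted p = 0.191).

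Apoa5 and Apoa4, next to each other on chromosome 9, stood highest in dKO. Apoa5 had 64.1, 64.5 and 55 FPKM in tKO, 83.8, 86.0 and 79.5 FPKM in dKO and 72, 72 and 72.6 FPKM in WT, and the 3 groups did not overlap. Its log2 fold change was −0.27 ± 0.05, adjusted p = 4.8e-06 in tKO against WT, 0.20 ± 0.049, adjusted p = 0.000531 in dKO against WT and −0.46 ± 0.049, adjusted p = 1.07e-12 in tKO against dKO (edgeR). Apoa4 had 268, 272 and 241 FPKM in tKO, 389, 389 and 384 FPKM in dKO and 238, 226 and 214 FPKM in WT. The dKO libraries lay far above both other groups (0.78 ± 0.041, adjusted p = 6.15e-27 against WT), and tKO was lower than dKO (−0.60 ± 0.041, adjusted p = 7.51e-21). The step of tKO over WT was small (0.18 ± 0.042, adjusted p = 0.000301), with no overlap in FPKM and an overlap in scaled CPM, at 378 to 429.9 CPM in tKO and 344 to 384 CPM in WT. In the gene coordinates of the liver experiment, the antisense genes Gm47528 and Gm10680 lie over 34.9% and 34.8% of the exon bases of Apoa4. Gm47544 lies there over 20.8% of those of Apoa5. In liver libraries Gm47528 held 108 to 461 counts, Gm10680 0 to 4 and Gm47544 0. The overlap was not computed for the hepatocyte files, and its part in the values of Apoa4 and Apoa5 was not tested.

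Of the HDL proteins, Apoa1 had 2075, 2255 and 2116 FPKM in tKO, 2369, 2512 and 2382 FPKM in dKO and 2051, 2044 and 2145 FPKM in WT. It was higher in dKO than in WT (0.21 ± 0.035, adjusted p = 3.12e-07) and lower in tKO than in dKO (−0.20 ± 0.035, adjusted p = 4.38e-06). The tKO and WT ranges overlapped (log2 fold change 0.018 ± 0.035, adjusted p = 0.713, 95% interval −0.052 to 0.088, edgeR). Apoa2 had 3273, 3316 and 3207 FPKM in tKO, 3545, 3341 and 3546 FPKM in dKO and 4016, 3926 and 3949 FPKM in WT. It was lower than WT in both knockout groups, with log2 fold changes of −0.31 ± 0.034, adjusted p = 1.29e-12 in tKO and −0.19 ± 0.034, adjusted p = 1.57e-06 in dKO. Between tKO and dKO the difference was the smallest of the 10 (−0.11 ± 0.034, adjusted p = 0.00662), and it was lost without tKO 9 (adjusted p = 0.0552) and by limma on log2(FPKM + 1) (adjusted p = 0.181).

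Apob, the VLDL backbone, was lower in dKO alone. It had 208, 192 and 208 FPKM in tKO, 171, 148 and 152 FPKM in dKO and 204, 192 and 199.9 FPKM in WT. The dKO libraries lay below both other groups (−0.34 ± 0.039, adjusted p = 1.72e-10 against WT), with tKO above dKO (0.34 ± 0.039, adjusted p = 3.61e-10). Between tKO and WT the log2 fold change was 0.0003 with a 95% interval of −0.077 to 0.078 (adjusted p = 0.996, edgeR). Apoe, the remnant ligand, had 5839, 6241 and 5928 FPKM in tKO, 5036, 5051 and 4983 FPKM in dKO and 5408, 5443 and 5564 FPKM in WT. The 3 groups did not overlap, with tKO highest and dKO lowest (0.11 ± 0.032, adjusted p = 0.00415 in tKO against WT, −0.13 ± 0.032, adjusted p = 0.000642 in dKO against WT and 0.24 ± 0.032, adjusted p = 5.08e-09 in tKO against dKO). Without tKO 8 the call of Apoe in tKO against WT was lost (adjusted p = 0.0899), and that in dKO against WT was lost by limma on log2(FPKM + 1) (adjusted p = 0.0563). Apoc4 had 312, 344 and 296 FPKM in tKO, 257, 267 and 263 FPKM in dKO and 309.6, 291 and 286 FPKM in WT. It was lower in dKO than in WT (−0.18 ± 0.052, adjusted p = 0.00341), which limma on log2(FPKM + 1) did not call (adjusted p = 0.0543), and higher in tKO than in dKO (0.25 ± 0.051, adjusted p = 5.56e-05). The tKO range overlapped WT (0.074 ± 0.051, adjusted p = 0.237), a difference that passed the test without tKO 9 alone (adjusted p = 0.0499).

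**Figure D3:**
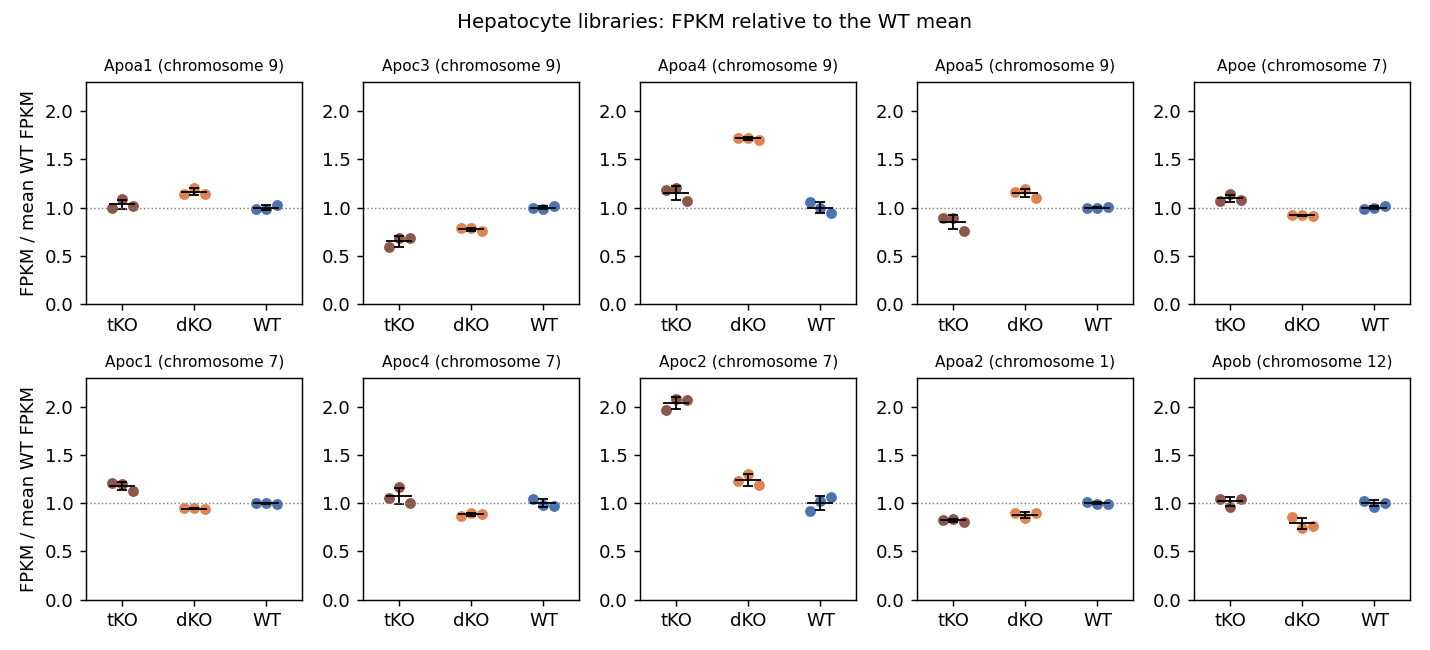
FPKM of each apolipoprotein gene in the hepatocyte libraries divided by the mean of the 3 WT libraries (vertical axis), tKO, dKO and WT from left to right in each panel, with points for libraries and bars for mean ± SD. Apoc2 is highest in tKO (98.0 FPKM against 48.0 FPKM in WT), Apoa4 is highest in dKO (387 FPKM), and Apoc3 is lowest in tKO (775 FPKM against 1188 FPKM in WT).

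The genes of each cluster moved in 1 direction in tKO against dKO, a pattern noticed after the values were seen. All 4 genes on chromosome 9 were called lower in tKO than in dKO (Apoa1 −0.20, Apoc3 −0.28, Apoa4 −0.60 and Apoa5 −0.46 on the log2 scale), and all 4 on chromosome 7 were called higher (Apoe 0.24, Apoc1 0.30, Apoc4 0.25 and Apoc2 0.61). Of all genes 15.2% were called lower and 14.3% higher in this comparison. With the liver dispersion 0 of the 10 apolipoprotein genes were called in it. The clusters did not move as blocks against WT. On chromosome 9 dKO had 3 genes higher and Apoc3 lower, and tKO had Apoa4 higher and Apoc3 and Apoa5 lower. On chromosome 7 dKO had Apoc2 higher and 3 genes lower, and tKO had 3 genes higher and Apoc4 not called. The genes flanking the clusters in tKO against dKO had log2 fold changes of −0.018 ± 0.055, adjusted p = 0.848 for Sik3 and 0.20 ± 0.05, adjusted p = 0.00103 for Zpr1 beside the chromosome 9 cluster (edgeR). On chromosome 7, Clptm1 had −0.16 ± 0.048, adjusted p = 0.00828 and Tomm40 −0.10 ± 0.065, adjusted p = 0.269. The called neighbours Zpr1 and Clptm1 thus moved opposite to the cluster beside them. In SMSrKO against WT liver the chromosome 7 genes lay between 0.22 and 0.63 and those on chromosome 9 between −0.37 and 0.54, with no call.

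**Figure D4:**
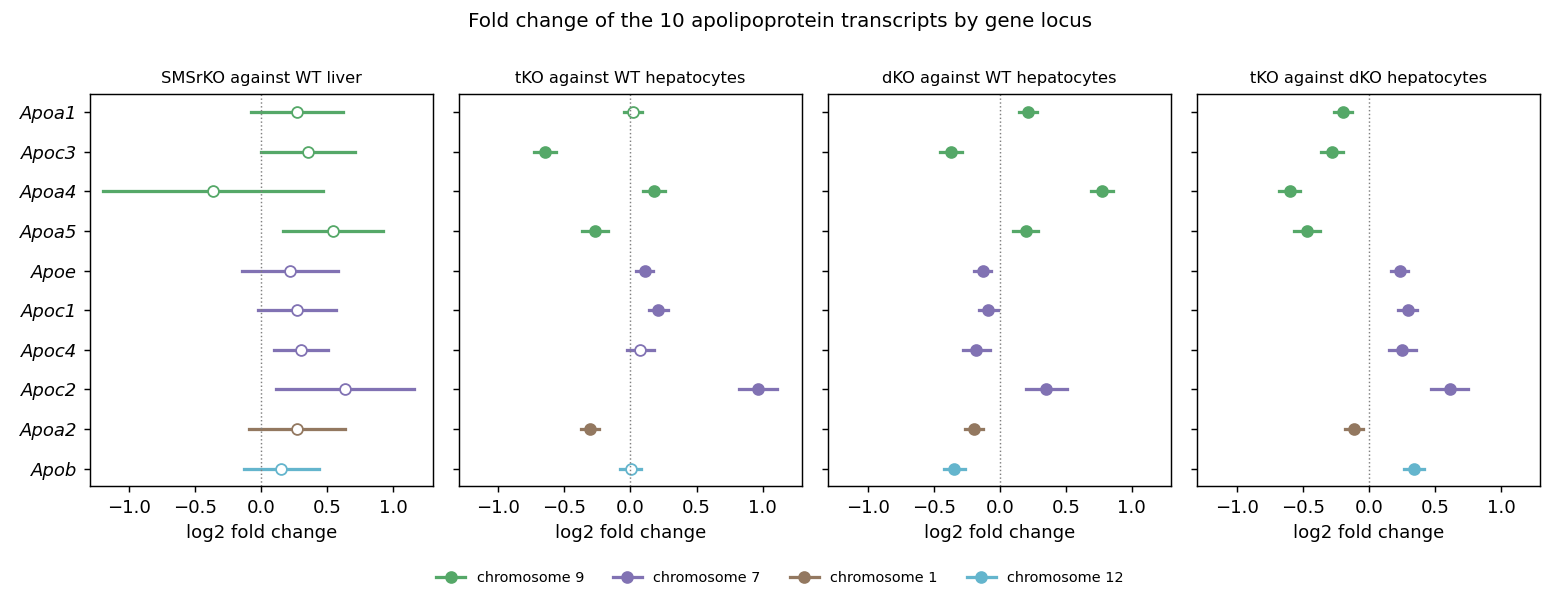
Log2 fold change (horizontal axis) of each apolipoprotein gene in the 4 comparisons, with 95% intervals from edgeR, filled points for genes called at an adjusted p of 0.05 and open points for the others, coloured by chromosome. In the right panel (tKO against dKO) the 4 genes on chromosome 9 lie between −0.60 and −0.20 and the 4 on chromosome 7 between 0.24 and 0.61, while the liver panel holds open points only.

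Other genes of the lipoprotein pathway moved in both directions. The counts that follow stand beside shares of all genes called of 47.4% in tKO against WT, 44.0% in dKO against WT and 29.5% in tKO against dKO, and each list is also counted with the dispersion of the liver libraries. Of 12 VLDL assembly genes, 1 higher and 5 lower in tKO against WT, 1 higher and 6 lower in dKO against WT and 4 higher and 4 lower in tKO against dKO were called, shares near those of all genes against WT, and with the liver dispersion 0 higher and 0 lower in tKO against WT, 0 higher and 0 lower in dKO against WT and 0 higher and 1 lower in tKO against dKO. Mttp, the transfer protein that loads lipid onto ApoB, averaged 121 CPM in tKO, 80.7 CPM in dKO and 129 CPM in WT. It was lower in dKO than in WT (−0.67 ± 0.054, adjusted p = 1.13e-18) and higher in tKO than in dKO (0.59 ± 0.054, adjusted p = 1.47e-15, edgeR), the same directions as Apob, but neither call was kept with the liver dispersion (adjusted p = 0.0601 in dKO against WT and 0.265 in tKO against dKO). Ces1d, a lipase that supplies lipid for VLDL, averaged 167 CPM in tKO, 364 CPM in dKO and 266 CPM in WT (−0.67 ± 0.045 in tKO against WT and −1.12 ± 0.044 against dKO, with an adjusted p of 0.0506 against WT and 0.000418 against dKO with the liver dispersion). P4hb, the partner subunit of Mttp, was lower in tKO (−0.41 ± 0.035) and in dKO (−0.31 ± 0.035) than in WT, with an adjusted p of 0.398 in tKO and 0.716 in dKO with the liver dispersion. Of 3 genes that edit the Apob transcript, 0 higher and 0 lower in tKO against WT, 1 higher and 0 lower in dKO against WT and 0 higher and 1 lower in tKO against dKO were called. The gene each time was the deaminase Apobec1 (0.33 ± 0.061, adjusted p = 3.04e-06 in dKO against WT, −0.41 ± 0.061, adjusted p = 3.34e-08 in tKO against dKO). With the liver dispersion its adjusted p was 0.662 in dKO against WT and 0.745 in tKO against dKO.

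Of 8 lipases and lipase regulators, 3 higher and 3 lower in tKO against WT, 4 higher and 2 lower in dKO against WT and 3 higher and 4 lower in tKO against dKO were called, and with the liver dispersion 2 higher and 1 lower in tKO against WT, 2 higher and 0 lower in dKO against WT and 0 higher and 2 lower in tKO against dKO. Lpl, the enzyme that ApoC-II switches on and that macrophages also make, averaged 21.7 CPM in tKO, 15.0 CPM in dKO and 0.543 CPM in WT, where counts were few. Its log2 fold change was 5.29 ± 0.21, adjusted p = 1.06e-36 in tKO against WT and 4.75 ± 0.23, adjusted p = 2.75e-31 in dKO against WT (edgeR). Angptl4, an inhibitor of Lpl, was lower in tKO than in WT (−0.80 ± 0.051) and than in dKO (−0.94 ± 0.051). Of 11 receptors and clearance genes, 5 higher and 3 lower in tKO against WT, 6 higher and 0 lower in dKO against WT and 1 higher and 3 lower in tKO against dKO were called, and with the liver dispersion 2 higher and 1 lower in tKO against WT, 2 higher and 0 lower in dKO against WT and 0 higher and 1 lower in tKO against dKO. Vldlr, which binds ApoE, was lower in tKO than in WT (−0.81 ± 0.074) and than in dKO (−1.28 ± 0.071). Cd36, a fatty acid transporter, was higher than WT in tKO (1.82 ± 0.089) and dKO (1.66 ± 0.091). Of 9 HDL genes, 2 higher and 5 lower in tKO against WT, 4 higher and 1 lower in dKO against WT and 1 higher and 4 lower in tKO against dKO were called, and with the liver dispersion 1 higher and 1 lower in tKO against WT, 1 higher and 1 lower in dKO against WT and 0 higher and 1 lower in tKO against dKO. Pltp, the phospholipid transfer protein, was lower in tKO (−1.60 ± 0.19) and dKO (−1.58 ± 0.19) than in WT, and Abca1, which lipidates ApoA-I, was lower in tKO than in dKO (−0.37 ± 0.043, with an adjusted p of 0.898 with the liver dispersion).

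Of 23 tested transcription factors known to act on apolipoprotein genes, 11 higher and 7 lower in tKO against WT, 12 higher and 6 lower in dKO against WT and 3 higher and 8 lower in tKO against dKO were called, and with the liver dispersion 2 higher and 0 lower in tKO against WT, 3 higher and 0 lower in dKO against WT and 0 higher and 0 lower in tKO against dKO. Hnf4a, an activator of Apoc3, Apob and other apolipoprotein genes, averaged 173 CPM in tKO, 122 CPM in dKO and 158 CPM in WT, and was higher in tKO than in dKO (0.50 ± 0.048, adjusted p = 6.14e-15, edgeR), a call lost with the liver dispersion (adjusted p = 0.459). Nr1d1 was higher than WT in tKO (0.92 ± 0.068) and dKO (0.99 ± 0.068), and Cebpb was higher than WT in dKO (0.63 ± 0.046, with an adjusted p of 0.0879 with the liver dispersion). Of 8 other apolipoproteins listed, 3 higher and 4 lower in tKO against WT, 4 higher and 2 lower in dKO against WT and 0 higher and 4 lower in tKO against dKO were called, and with the liver dispersion 2 higher and 0 lower in tKO against WT, 2 higher and 0 lower in dKO against WT and 0 higher and 1 lower in tKO against dKO. The acute phase apolipoprotein Saa1, carried on HDL, averaged 1097 CPM in tKO, 1629.7 CPM in dKO and 508 CPM in WT, and Saa2 622 CPM in tKO, 1045 CPM in dKO and 349 CPM in WT. Of 14 acute phase genes, 8 higher and 6 lower in tKO against WT, 10 higher and 4 lower in dKO against WT and 0 higher and 14 lower in tKO against dKO were called, and with the liver dispersion 3 higher and 4 lower in tKO against WT, 5 higher and 0 lower in dKO against WT and 0 higher and 1 lower in tKO against dKO. Lcn2 had log2 fold changes against WT of 1.64 ± 0.037 in tKO and 2.13 ± 0.037 in dKO, and Crp of 1.45 ± 0.04 in tKO and 1.70 ± 0.04 in dKO.

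Markers of other cells moved with the genotype labels as well. Macrophage markers (8 genes) together held 245 to 274 CPM in tKO, 200.4 to 211 CPM in dKO and 93.5 to 108 CPM in WT, with Vsig4 at 0 in WT. Cd68 made up nearly all of that sum: the other 7 together held 4.52 to 5.59 CPM in tKO, 7.19 to 7.58 CPM in dKO and 0.542 to 1.29 CPM in WT, so that without Cd68 dKO was the highest group. Endothelial markers (7 genes) held 68.3 to 70.6 CPM in tKO, 117 to 132 CPM in dKO and 19.2 to 19.7 CPM in WT. Stellate cell markers (8 genes) held 35.4 to 38.7 CPM in tKO, 56.9 to 61.7 CPM in dKO and 16.4 to 20.2 CPM in WT, with Lrat at 0 in WT. Without Reln, the gene of that list with most counts, the other 7 held 20.3 to 21.7 CPM in tKO, 37.8 to 41.6 CPM in dKO and 1.18 to 1.29 CPM in WT. The groups did not overlap for any of these 3 lists, with or without the gene of most counts for macrophages and stellate cells, and the knockout groups were the higher ones. Hepatocyte markers (7 genes) held 55930.5 to 57830.5 CPM in tKO, 62923 to 63899.8 CPM in dKO and 75992 to 77022 CPM in WT, lowest in tKO. Without Alb the other 6 held 18504 to 19116 CPM in tKO, 21559 to 22045 CPM in dKO and 27713 to 28687 CPM in WT. Not all 7 were lower in tKO than in WT. There edgeR called 5 lower and Hnf4a higher (0.13 ± 0.047, adjusted p = 0.0146), and did not call Cps1 (−0.050 ± 0.058, adjusted p = 0.517). Apoe, which macrophages also express, averaged 6903 CPM in tKO, 5864 CPM in dKO and 6409.8 CPM in WT. Bile duct markers (5 genes) held 249 to 266 CPM in tKO, 373 to 395 CPM in dKO and 246 to 261 CPM in WT, with Sox9 at 161 to 169 CPM in tKO, 196 to 215 CPM in dKO and 69.3 to 86.0 CPM in WT. Without Sox9 the other 4 held 87.85 to 99.63 CPM in tKO, 169 to 184 CPM in dKO and 171 to 182 CPM in WT. Those sums were lowest in tKO and overlapped between dKO and WT. Erythroid markers held 7.24 to 9.55 CPM in tKO, 4.72 to 6.40 CPM in dKO and 4.55 to 5.81 CPM in WT. Alas2 made up most of that sum, and the other 2 listed genes held 0.208 to 1.14 CPM in tKO, 0 in dKO and 0 to 0.215 CPM in WT. Intestinal markers held 8.41 to 10.6 CPM in tKO, 7.03 to 7.90 CPM in dKO and 6.18 to 10.1 CPM in WT. Most of it was Fabp2, and the other 2 listed genes held 1.87 to 2.59 CPM in tKO, 0.966 to 2.34 CPM in dKO and 0.969 to 1.61 CPM in WT. Adipocyte markers were at 0 in tKO and dKO and reached at most 0.107 CPM in WT, and Cdx1, Cdx2 and Adipoq were unlisted and so counted as 0 in all 9 libraries. The part of these cells in the apolipoprotein values was not tested.

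The genes whose levels ran most like those of an apolipoprotein were named by Pearson correlation of log2 CPM, as a description, since libraries share their groups. For Apoc4, with the smallest p in liver, these were Proc, which encodes the anticoagulant protein C (r = 0.985), Col18a1, a basement membrane collagen (r = 0.977), and BC024139 (r = 0.976), over 8 libraries and 8377 genes. For Apoc3, with the smallest p in tKO against WT hepatocytes, they were Tpst1, a tyrosine sulfotransferase (r = 0.986), Khk, the fructose kinase (r = 0.986), and Gldc, a subunit of the glycine cleavage system (r = 0.982), over 9 libraries and 8401 genes.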

How the data were processed

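RNA was sequenced from 8 liver and 9 hepatocyte libraries, grouped by the labels. The authors deposited whole-number counts per Ensembl gene for liver, with gene lengths per the file headers, and a TPM table that the counts and lengths give back within 5e-05. For hepatocytes the authors deposited expected counts per Entrez gene and FPKM values, per the file headers, and 0 was entered where a file does not list a gene. Builds GRCm38 and mm10 and the tools STAR 2.5.2b, Bowtie2 2.2.5, Trimmomatic 0.36 and DESeq2 1.30.1 are listed per the submitters' processing notes, without their roles. The counting tool and the strand setting were not given in the sources used here. Testing used expected counts rounded to whole numbers, of which 6.25% had a fractional part as deposited.

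Counts were tested with edgeR 4.0.16 (limma 3.58.1, R 4.3.3): filterByExpr with a minimum count of 10, TMM scaling, the robust quasi-likelihood F test, and Benjamini-Hochberg adjustment over all tested genes at 0.05, in 1 fit for liver and 1 for all 9 hepatocyte libraries. SE is that of the log2 fold change, CPM is TMM-scaled, and CPM summed over a marker list is relative to library totals. Alternatives were DESeq2 1.42.0, other scalings, no filter, each library left out, limma on log2(TPM or FPKM + 1) with genes of a mean of at least 1, a pseudocount of 0.1 there, and the liver dispersion for hepatocytes. Marker sums without the gene of most counts were added after seeing the data. The edgeR test was also run on simulated counts for SMSrKO against WT liver and dKO against WT hepatocytes. Those counts took the spread fitted to these libraries, so they cannot show whether that spread is right. Tables and figures were made in Python 3.11.15 with matplotlib 3.10.9, numpy 2.4.6 and pandas 2.3.3.

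The members and gene lists were chosen with earlier results of these data known. Text names all 10 members, the targeted genes, up to 3 genes of each pathway list with the smallest p in a comparison, the 3 genes most like a member among those with a mean of at least 10 CPM, and the genes that flank the members by position. Values of a gene so named may be given in other comparisons too, and Gm44805 and the antisense genes are named for the exon bases they share with a member. Some genes of the lists are not reported here. Marker symbol Tf was read as Trf, its current name. Overlap is over exon bases in the gene coordinates of the liver experiment, and flanking genes are those of GENCODE release M21. Promoters are from RefSeq, and genes of shared exons are uncertain.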

Additional observations from a re-analysis of the deposited data

Results flagged for a closer look

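Among 22 groups of 4 liver libraries tested for a library far from the other 3 by Dixon's test at 95%, 3 stood out, and chance gives about 1 in 20 groups. Apob in SMSrKO 7 had 864 TPM, against 745, 752 and 760.3 TPM in the other SMSrKO libraries. Apoc1 in SMSrKO 6 had 6997 TPM, against 5990.4, 5996 and 6026 TPM in the other SMSrKO libraries. The share of library counts held by the 10 genes was 4.90% in SMSrKO 8, against 5.03%, 5.04% and 5.04% in the other SMSrKO libraries, so that SMSrKO 8 was the low one within a narrow range.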

How the results depend on the processing

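Scaling, filter, single libraries and the choice of groups in the fit left most results where they were. In liver the DESeq2 test called 2 of the 10 genes where edgeR called 0, and the other 14 alternatives called 0. With the liver dispersion, hepatocyte calls came to 1 in tKO against WT, 1 in dKO against WT and 0 in tKO against dKO, by construction of a wider error. Without single libraries the calls ranged over 6 to 8 in tKO against WT, 9 to 10 in dKO against WT and 9 to 10 in tKO against dKO. The values near 0 in tKO against WT changed sign: Apob had −0.00311 with DESeq2 size factors, −0.00312 in the DESeq2 test, −0.00262 with no filter, and −0.0271 to 0.0357 without single libraries, and Apoa1 −0.0234 to 0.0383 without single libraries. The cause was not tested. Over single genes and alternatives, the side of the threshold and the direction held in 148 values in liver, 164 in tKO against WT, 154 in dKO against WT and 166 in tKO against dKO. The threshold was newly passed in 2 in liver and 1 in tKO against WT, and was missed with the direction kept in 7 in tKO against WT, 26 in dKO against WT and 14 in tKO against dKO. As a share of summed levels in place of counts, the 10 genes held 7.06% in SMSrKO and 6.22% in WT livers and 3.15% in tKO, 2.92% in dKO and 3.08% in WT hepatocytes. No paired analysis was possible because the groups compared share no replicate numbers. Liver TPM of Apoc2 rests on 111 to 243 counts a library.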

Other observations

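Together the 10 genes held 4.90% to 5.04% of all counts in SMSrKO and 3.62% to 5.25% in WT livers (n = 4 each), with WT 1 lowest and the mean 4.51% ± 0.71 in WT (SD). In hepatocytes they held 1.54% ± 0.035 in tKO and 1.41% ± 0.018 in dKO (SD, n = 3 each) and 1.48% to 1.51% in WT. The ranges of tKO, 1.52% to 1.58%, and dKO, 1.39% to 1.43%, did not overlap. Apoe alone made up 59.3% of these counts in SMSrKO and 59.5% in WT livers, and 45.2% in tKO, 41.5% in dKO and 42.5% in WT hepatocytes. Beside Apoa2 on chromosome 1, Fcer1g, which encodes a chain of the immunoglobulin E receptor found on myeloid cells, was higher than WT in tKO (log2 fold change 3.09 ± 0.52, adjusted p = 4.47e-07) and in dKO (3.05 ± 0.53, adjusted p = 9.57e-07, edgeR), while Apoa2 itself was lower in both. Tomm40l, on the other side of Apoa2, was not called in tKO (−0.015 ± 0.14) or dKO (−0.050 ± 0.14) against WT or in tKO against dKO (0.035 ± 0.14). Beside Apob on chromosome 12, Ldah, a lipid droplet hydrolase, was higher in tKO than in dKO (0.27 ± 0.077, adjusted p = 0.00406, edgeR), as Apob was. In dKO against WT Ldah was not called (−0.11 ± 0.079, adjusted p = 0.287, edgeR), while Apob was lower. Of all genes 47.4% were called in tKO against WT, 44.0% in dKO against WT and 29.5% in tKO against dKO.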
